A study of Mus musculus with 2 samples.

Results

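The genes described here encode the contractile and actin-binding proteins that mark smooth muscle, together with the members of the same protein families that other cells use. They are 47 of the 20660 genes that probes with a RefSeq name represent on the array, and 78 probes report them. The list was drawn up with earlier values of the same 2 arrays in view, and it was read through every probe, controls apart, whose RefSeq accession belongs to one of the 47 genes. Calls on these genes are therefore descriptions of the arrays and carry no test.

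The arrays measured mRNA in cultured macrophages grown from femoral marrow of male mice, 1 array for wild-type mice (Capn6-Wt) and 1 for calpain-6-deficient mice (Capn6-Ko). Both cultures received 10% serum, 50 ng/mL of M-CSF, the growth factor that turns marrow cells into macrophages, and 10 ng/mL of TNF-α, an inflammatory cytokine, and unbound cells were washed away. Culture time is given as day 3 in the sample description and as day 4 in the source name. Cells of 4 mice were pooled according to the design text, which leaves unsaid whether each group had that many. Strain, age and the construction of the Capn6 allele are not given in the sources used here. Calpain-6 belongs to the calpain protease family but lacks the catalytic cysteine.

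Of the 59305 spots that are not controls, 51.7% (Capn6-Wt) and 52.8% (Capn6-Ko) were well above background, and 12875 genes were measured on both. With 1 pooled array for each genotype there is no replicate check, so no p-value is given and precision is limited by how few arrays there are. The ± beside a log2 difference is 1 SD expected from the spread between spots of the same probe and covers spotting and scanning alone. The single Capn6 probe read 3.93 (Capn6-Wt) and 8.65 (Capn6-Ko) and failed the background test on both arrays, so it does not check the labels. Macrophage markers were plainly present, among them Csf1r, the M-CSF receptor, which read 42230.4 and 48105 on the respective arrays.

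Smooth muscle cells contract when myosin motors pull on thin filaments of actin, which are decorated by tropomyosin, calponin, caldesmon and transgelin. Non-muscle cells, macrophages included, build their cortex, stress fibres and podosomes from a parallel set of actins, tropomyosins, filamins and myosins encoded by other genes. Many genes of both sets are controlled by serum response factor (SRF) with its coactivators, the actin-sensing MRTF proteins and, in muscle, myocardin. Activated fibroblasts and other stromal cells also express part of the smooth muscle set, α-smooth muscle actin and transgelin above all.

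SRF binds a short motif called the CArG box, and the RefSeq promoter windows of the members (GRCm38.p6, 250 bases before to 50 after a gene's start) show where its exact consensus occurs. A window was found by symbol for 41 of the 47 genes, the others being Actb, Actg2, Csrp2, Myh11, Myocd and Tagln. The consensus, searched on both strands, was present for 10 of the 41 (24.4%), against 488 of 27025 genes in the whole table (1.81%). The stretches below are shown because the motif occurs both upstream of genes that were lower in Capn6-Ko and upstream of genes that did not reach 1.3-fold. Each is printed 5′ to 3′ along the gene's strand and ends before the gene's start, with the CArG box in capitals. The starts of Fhl2 are numbered by ascending chromosome position, not by their order along the gene.
Acta1 (chr8:123894799-123894888, minus strand): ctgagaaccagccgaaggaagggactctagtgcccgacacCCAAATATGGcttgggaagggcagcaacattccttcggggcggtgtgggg
Myl9 (chr2:156775263-156775352, plus strand): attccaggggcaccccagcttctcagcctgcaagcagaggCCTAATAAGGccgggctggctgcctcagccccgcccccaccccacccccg
Fhl2, first start (chr1:43163962-43164032, minus strand): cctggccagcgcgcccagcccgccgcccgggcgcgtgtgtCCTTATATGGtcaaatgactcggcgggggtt
Fhl2, second start (chr1:43196808-43196897, minus strand): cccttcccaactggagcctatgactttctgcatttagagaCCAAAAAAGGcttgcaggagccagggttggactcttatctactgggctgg
Actg1 (chr11:120348536-120348625, minus strand): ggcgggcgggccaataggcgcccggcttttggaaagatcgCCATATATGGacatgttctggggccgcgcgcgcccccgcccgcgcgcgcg
Myl6 (chr10:128493010-128493099, minus strand): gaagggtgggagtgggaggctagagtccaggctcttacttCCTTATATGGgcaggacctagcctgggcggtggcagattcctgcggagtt
Cnn2 (chr10:79988504-79988593, plus strand): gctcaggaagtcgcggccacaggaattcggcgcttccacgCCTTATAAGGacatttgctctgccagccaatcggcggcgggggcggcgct
Srf (chr17:46556175-46556284, minus strand): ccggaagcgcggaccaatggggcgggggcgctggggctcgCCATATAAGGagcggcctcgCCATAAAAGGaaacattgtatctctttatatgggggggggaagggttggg

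The motif lay 73 bases before the start of Acta1, 161 before that of Myl9, and 31 and 96 before the starts of Fhl2, all genes with a lower signal in Capn6-Ko. It lay 90 bases before the start of Actg1, 50 before that of Myl6, 56 before that of Cnn2, and 82 and 62 before that of Srf, the gene of SRF itself. Vcl, Actc1 and Fhl1 carried it too. Among members at least 1.3-fold lower in Capn6-Ko, 3 of the 12 with a window held the motif (25.0%), and among the other measured members 5 of 22 did (22.7%). A match is a description of these letters, not a binding site, and a window without them shows only that the letters are missing from that window.

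Across the 47 genes, 38 were measured, meaning that at least 1 probe was well above background on both arrays. The other 9 were Actc1, Des, Fhl1, Lmod1, Myh11, Myocd, Pdlim3, Synm and Synpo2, and no fold is given for them. Of the 38, 14 (36.8%) were at least 1.3-fold lower in Capn6-Ko, where 4.32% of the measured genes on the array were, while 0 were at least 1.3-fold higher, where 1.74% were. Lower genes were 71.3% of all genes past that size, and 52.9% when each array was centred on its median instead. The 14 members were Acta1, Acta2, Actg2, Tagln, Cnn1, Cnn3, Tpm2, Cald1, Myh10, Myl9, Mylk, Flnc, Smtn and Fhl2. Their Capn6-Ko level was 60.1% to 76.1% of that in Capn6-Wt. At 1.5-fold, 6 members were lower and 0 higher, beside 1.26% and 0.334% of all measured genes. Below 0 were 28 members, with 52.2% of all measured genes. The median log2 difference of the 38 members was -0.16, beside -0.0056 over all measured genes. Just inside the 1.3-fold size stood Smtn at -0.39, and just outside it Csrp2 at -0.38. Taken over the spot error alone, 19 members were lower by more than 2 SD and 1, Pdlim5, was higher, while 7.18% and 5.59% of all measured genes were. The count of 14 was 7 of 38 after normexp correction, which also took the median spot signal and an added offset of 50, and 7 of the 31 members measured when only probes above the median level were kept.

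The plainest split was between muscle-type isoforms and their broadly expressed relatives. Of 12 muscle-type isoforms 9 were measured, and every one of these 9 was lower in Capn6-Ko. Lower by at least 1.3-fold were 8 of these 9 (88.9%), all but Tpm1, beside 4.32% of all measured genes. That count was 5 of 9 after normexp correction and 7 of 9 with each array centred on its median. With only probes above the median level it was 5 of the 6 measured. The median difference of the 9 was -0.53, and they ran from -0.65 to -0.18. The 14 broadly expressed isoforms were all measured, with a median of -0.0054, and 7 lay below 0 and 7 above. At least 1.3-fold lower were 2 of the 14 (14.3%), Cnn3 and Myh10. The summed signal of the measured muscle-type genes, each scaled to the 75th percentile of its array, was 72.9 against 48.6 (Capn6-Wt against Capn6-Ko), and that of the broad isoforms 1738 and 1797. Bright genes dominate these sums. In Capn6-Wt, Tagln gave 30.7, Acta2 18.4 and Myl9 14.5 of the first, and Actb gave 730 of the second.

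**Figure D1:**
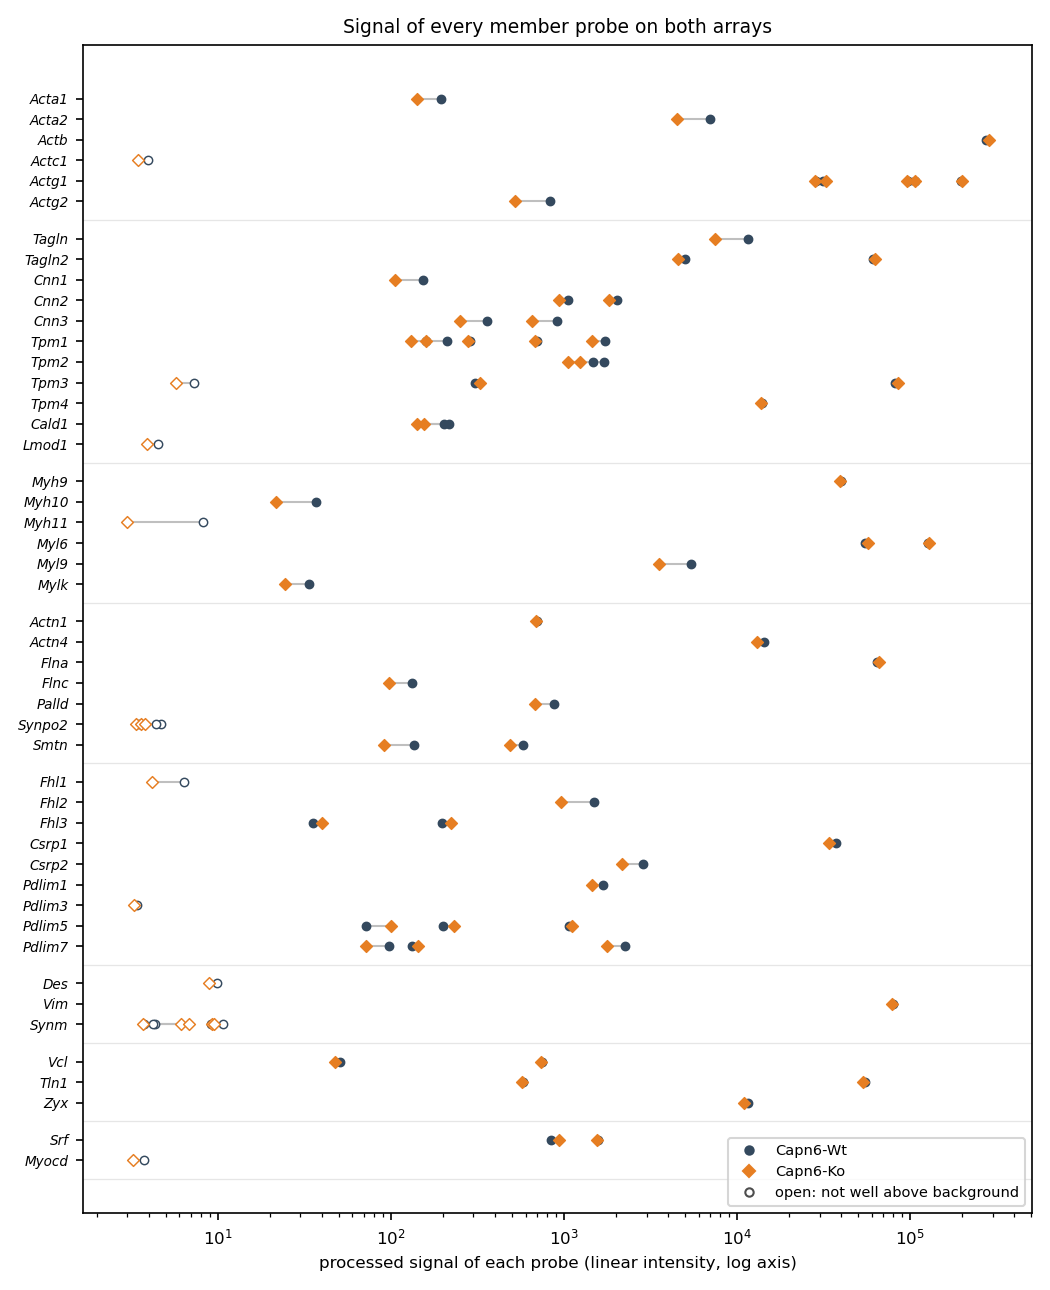
Processed signal of every probe of the 47 genes (horizontal log axis, linear intensity units) on the Capn6-Wt array (circles) and the Capn6-Ko array (diamonds), with genes grouped by role from actins at the top to transcriptional regulators at the bottom; open symbols were not well above background. Diamonds sit left of circles for Acta2, Actg2, Tagln, Myl9 and Fhl2, while the symbols of Actb, Myh9, Flna and Vim lie on each other.

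Among the actins, both smooth muscle forms and the skeletal muscle form were lower in Capn6-Ko, the cytoplasmic forms were level, and the cardiac form was at background. Acta2, the smooth muscle α-actin, had a mean signal of 6946 over 10 Capn6-Wt spots and 4522 over 9 Capn6-Ko spots, 1 outlier spot being left out. The spots ran from 6331 to 7618 on the first array and from 4349 to 4690.4 on the second, so they did not overlap. They are repeats of 1 probe on 1 array per genotype, so their spread covers spotting and scanning alone. The log2 difference was -0.60 ± 0.025, or 1.52-fold. Actg2, the enteric smooth muscle γ-actin, read 829.9 in Capn6-Wt and 522 in Capn6-Ko, for a difference of -0.65 ± 0.094. It was the lowest value among the 6437 genes above the median level. Acta1, the skeletal muscle α-actin, read 195 and 141, a difference of -0.45 ± 0.13, which was -0.26 after normexp correction.

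The cytoplasmic actins serve as the structural actin of nearly every cell. Actb read 274931 in Capn6-Wt and 284553 in Capn6-Ko (0.068 ± 0.083), within its spot error. Actg1 has 5 probes, with differences from -0.015 to 0.068 and a mean of 0.021 ± 0.037. Actc1, the cardiac α-actin, was at background, with signals of 3.93 and 3.47. Actin genes are very similar in their coding sequence, probe sequences were not analysed here, and binding of a probe to the transcript of a relative was not tested.

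Transgelin and calponin, small proteins that lie along actin filaments, repeated the split in part. Tagln, transgelin of smooth muscle, read 11559.7 in Capn6-Wt and 7457 in Capn6-Ko (-0.61 ± 0.080). Its relative Tagln2, the main form of leukocytes, had 1 probe at 60909.9 and 62462 and another at 4975 and 4545, which gave -0.029 ± 0.056 together. The probes of Tagln2 lie on either side of 0, and the sign of the gene changes with the setting.

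Cnn1, the smooth muscle calponin, read 153 in Capn6-Wt and 105 in Capn6-Ko (-0.53 ± 0.15). Cnn2, the calponin of leukocytes and other non-muscle cells, was at -0.14 on each of its probes, for a mean of -0.14 ± 0.059. Cnn3, the acidic calponin, did not follow the broad class, with 914 against 656 on one probe and 358 against 252 on the other (-0.47 ± 0.071). The distance between Cnn1 and the mean of the other calponins was therefore small, -0.22 ± 0.16 on the log2 scale.

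Tropomyosins are coiled coils that run along the actin filament and gate the access of myosin. Tpm2, the β form rich in smooth muscle, read 1694 and 1476 on its probes in Capn6-Wt and 1232 and 1049.7 in Capn6-Ko, for a difference of -0.46 ± 0.058. The non-muscle gene Tpm4 read 13968 and 13681 (-0.012 ± 0.083), and Tpm3 was at 0.090 ± 0.069 over its measured probes. Tpm1, which makes smooth, striated and non-muscle forms from alternative exons, was at -0.18 ± 0.051. The 5 Tpm1 probes are assigned by the array to different transcripts and were not alike. One read 211 and 159 on the respective arrays (-0.38 ± 0.13). The probe with the highest signal read 1726 and 1450.3 (-0.23 ± 0.082), a dimmer one 159 and 131 (-0.26 ± 0.14), and another pair stood at -0.018 ± 0.093 and -0.0095 ± 0.11. Which transcript each probe binds was not analysed here.

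The remaining thin filament regulators are Cald1 and Lmod1. Cald1, caldesmon, an actin-binding inhibitor of myosin's ATPase, read 217 and 203 on its probes in Capn6-Wt and 156 and 142 in Capn6-Ko (-0.48 ± 0.093). The probes differed by less than their spot error. Lmod1, leiomodin, which nucleates actin filaments in smooth muscle, was at background with 4.50 and 3.93.

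**Figure D2:**
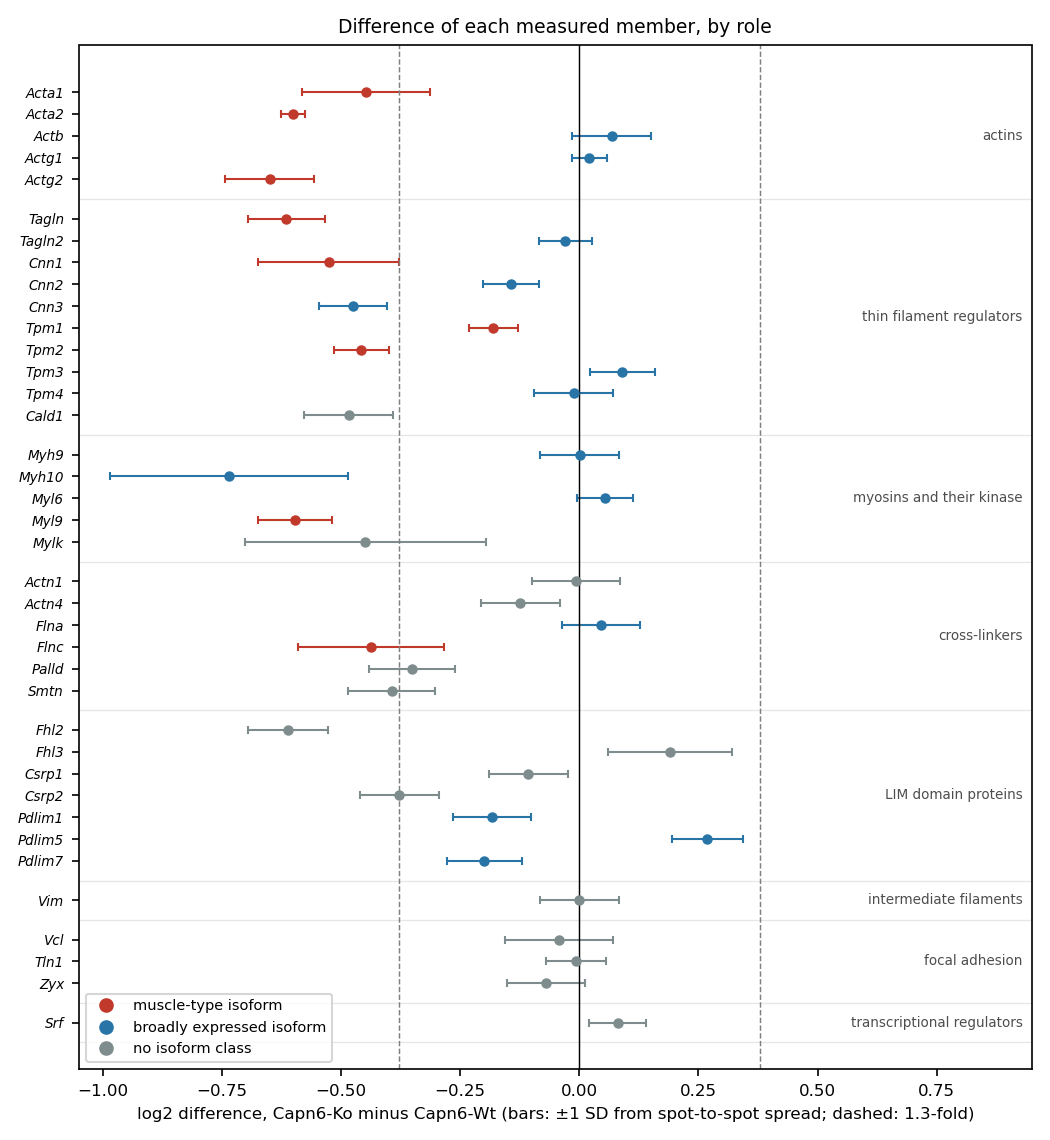
Log2 difference, Capn6-Ko minus Capn6-Wt, of the 38 measured genes (horizontal axis), grouped by role, with bars of 1 SD from spot-to-spot spread and dashed lines at 1.3-fold. Muscle-type isoforms (red) lie between -0.65 and -0.18, and most broadly expressed isoforms (blue) lie near 0, with Myh10 and Cnn3 far to the left.

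In the myosin group the regulatory light chain of smooth muscle was lower, Myl6 and the heavy chain Myh9 were level, and the heavy chain Myh10 was lower at a dim signal. Myl9 read 5447 in Capn6-Wt and 3559 in Capn6-Ko (-0.60 ± 0.077). Myl6, the essential light chain shared by smooth and non-muscle myosin, had probes at 126871 and 128375 and at 54771 and 56935, for 0.055 ± 0.058. Myh9, the heavy chain of non-muscle myosin IIA, read 39669 and 39199, a difference of 0.00097 ± 0.083.

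The other motor genes were near the detection limit. Myh10, the heavy chain of non-muscle myosin IIB, read 36.8 in Capn6-Wt and 21.8 in Capn6-Ko (-0.73 ± 0.25), and it stood at -0.26 after normexp correction. Mylk, the kinase that phosphorylates the regulatory light chain, read 33.8 and 24.4 (-0.45 ± 0.25), which is within 2 SD of spot error. Myh11, the heavy chain that defines differentiated smooth muscle, was not well above background, with 8.25 and 2.97. Probes with mean signals as low as 16.6 (Capn6-Wt) and 14.0 (Capn6-Ko) still counted as well above background.

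Cross-linking proteins bundle actin filaments or tie them into networks. Flnc, the muscle filamin, read 133 in Capn6-Wt and 97.2 in Capn6-Ko (-0.44 ± 0.15), and Flna, the filamin of most cells, read 64381 and 65617 (0.046 ± 0.083). Palld, palladin, a scaffold of stress fibres, read 877 and 679 (-0.35 ± 0.090), short of 1.3-fold. The α-actinins Actn1 and Actn4 were at -0.0066 ± 0.093 and -0.12 ± 0.083.

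Smtn, smoothelin, a marker of contractile smooth muscle, had probes that stood apart by more than the spot error of either. One read 578 in Capn6-Wt and 486 in Capn6-Ko (-0.23 ± 0.099), and the other 136 and 91.5 (-0.56 ± 0.15). Their mean of -0.39 ± 0.092 just passes 1.3-fold, and with the brighter probe alone the gene does not. Synpo2, synaptopodin-2, an actin-bundling protein of muscle, was at background on its 3 probes, with signals from 3.37 to 4.68.

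LIM domain proteins dock on actin, on the Z-disc and on focal adhesions, and this group was mixed. Fhl2, a LIM-only coregulator rich in heart, read 1489.9 in Capn6-Wt and 963 in Capn6-Ko (-0.61 ± 0.083). Fhl3, its skeletal muscle relative, went the other way by 0.19 ± 0.13, with nearly equal values on both probes and within 2 SD of spot error. Fhl1, the main form of striated muscle, was at background with 6.39 and 4.16. All 3 genes are known from muscle, so they were given no isoform class.

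Csrp1 and Csrp2 encode cysteine-rich proteins that bind α-actinin and zyxin. Csrp2 read 2850.4 in Capn6-Wt and 2167 in Capn6-Ko (-0.38 ± 0.083), and Csrp1 read 37202 and 34122 (-0.11 ± 0.083). Of the PDLIM family, which links α-actinin to signalling proteins, the muscle form Pdlim3 was at background with 3.44 and 3.27, so the family gives no contrast of isoforms. Pdlim1 read 1674 and 1457 (-0.18 ± 0.082).

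Pdlim5 and Pdlim7 had probes that disagreed by more than their spot error. The probes of Pdlim5 ranged from 0.081 ± 0.082 (1062 and 1109) to 0.50 ± 0.17 (71.9 and 101), with a mean of 0.27 ± 0.074, the highest of the members. Those of Pdlim7 stood at -0.32 ± 0.083 (2239 and 1769.6), -0.42 ± 0.17 (97.3 and 71.9) and 0.14 ± 0.14 (132 and 144), with a mean of -0.20 ± 0.079. Both genes make several splice forms. Of the 16 members with more than 1 measured probe, 10 had probes within 0.1 of each other (Actg1, Cald1, Cnn2, Cnn3, Fhl3, Myl6, Tln1, Tpm2, Tpm3 and Vcl). The other 6 were Pdlim5, Pdlim7, Smtn, Srf, Tagln2 and Tpm1.

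**Figure D3:**
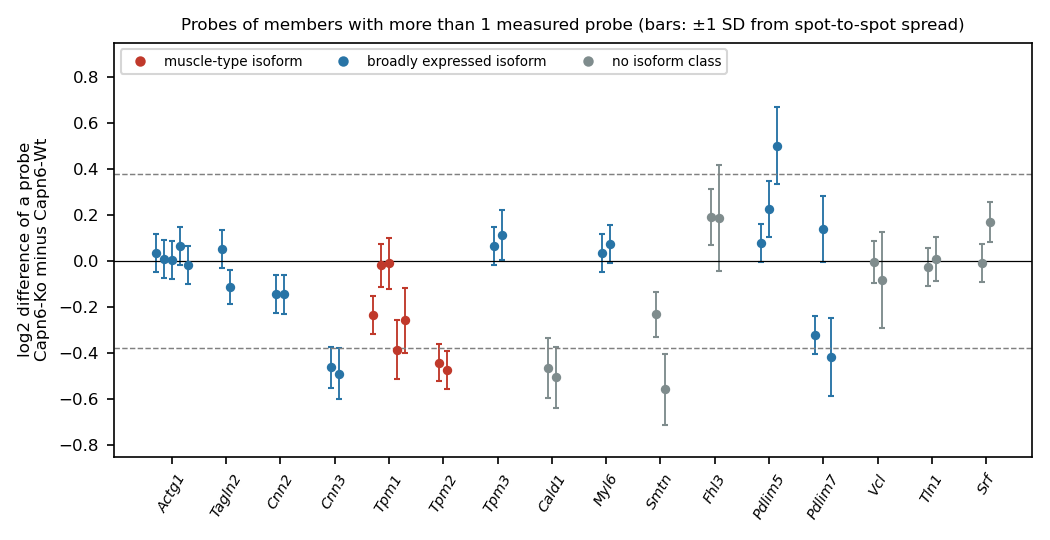
Log2 difference, Capn6-Ko minus Capn6-Wt, of each measured probe (vertical axis) for the 16 genes with more than 1, with bars of 1 SD from spot-to-spot spread and dashed lines at 1.3-fold. The 5 Tpm1 probes spread from -0.38 to -0.0095 and the Pdlim7 probes from -0.42 to 0.14, while those of Cnn3, Tpm2 and Cald1 lie together.

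Intermediate filament and focal adhesion genes showed no difference beyond the spot error where they were measured. Vim, vimentin, the intermediate filament of mesenchymal and myeloid cells, read 79238 in Capn6-Wt and 78274 in Capn6-Ko (0.00052 ± 0.083). Des, desmin, the intermediate filament of muscle, has 10 spots on each array, and none was well above background, with spots from 3.88 to 15.9 in Capn6-Wt and from 4.44 to 11.9 in Capn6-Ko. The 5 probes of Synm, synemin, were at background as well. Talin (Tln1), which activates integrins, was at -0.0065 ± 0.064, vinculin (Vcl), its partner on actin, at -0.042 ± 0.11, and zyxin (Zyx), a sensor of tension, at -0.069 ± 0.082.

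Of the transcriptional regulators, Srf was measured and had probes at 1574 and 1545 and at 842 and 935, a mean of 0.081 ± 0.060, and its sign changed with the brightest probe alone. Myocd, myocardin, was at background with 3.75 and 3.22. Sign depended on the setting for 7 members in all, namely Tagln2, Tpm4, Actn1, Vim, Vcl, Tln1 and Srf. Their values given here lie within 0.081 of 0, and Srf reached 0.15 with arrays centred on their median.

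Contrasts within a family cancel a scaling that acts equally on all genes of an array, but not a shift that depends on signal level. Levels within a family could lie far apart, as for Flnc at -1.72 and Flna at 7.44 (log2 over the 75th percentile). The contrasts were not recomputed under other settings. Muscle-type minus broad, on the log2 scale, was -0.61 ± 0.071 for the actins, -0.59 ± 0.098 for the transgelins and -0.65 ± 0.097 for the myosin light chains. The light chain value sets the regulatory chain Myl9 against the essential chain Myl6, so it does not compare isoforms of the same chain. It was -0.48 ± 0.17 for the filamins, -0.36 ± 0.066 for the tropomyosins and -0.22 ± 0.16 for the calponins. The calponin value is the one within 2 SD of spot error. In the myosin heavy chains and the PDLIM family no muscle form was measured.

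Members past 1.3-fold were found at high and at low levels. Above the median level of the measured genes lay 25 members, of which 6 (Acta2, Actg2, Tagln, Tpm2, Myl9 and Fhl2) were at least 1.3-fold lower, where 46 of 6437 genes (0.715%) were. Of the 25, 17 lay below 0, as did 51.5% of genes above that level, and 0 were higher by 1.3-fold or 1.5-fold, which 0.357% and 0.0777% of those genes were. At 1.5-fold, 9 genes above that level were lower (0.14%), and 5 of the 9 were Actg2, Tagln, Fhl2, Acta2 and Myl9. The other 13 members lay at or below the median level, and 8 of them were at least 1.3-fold lower, where 7.92% of the genes at or below that level were.

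**Figure D4:**
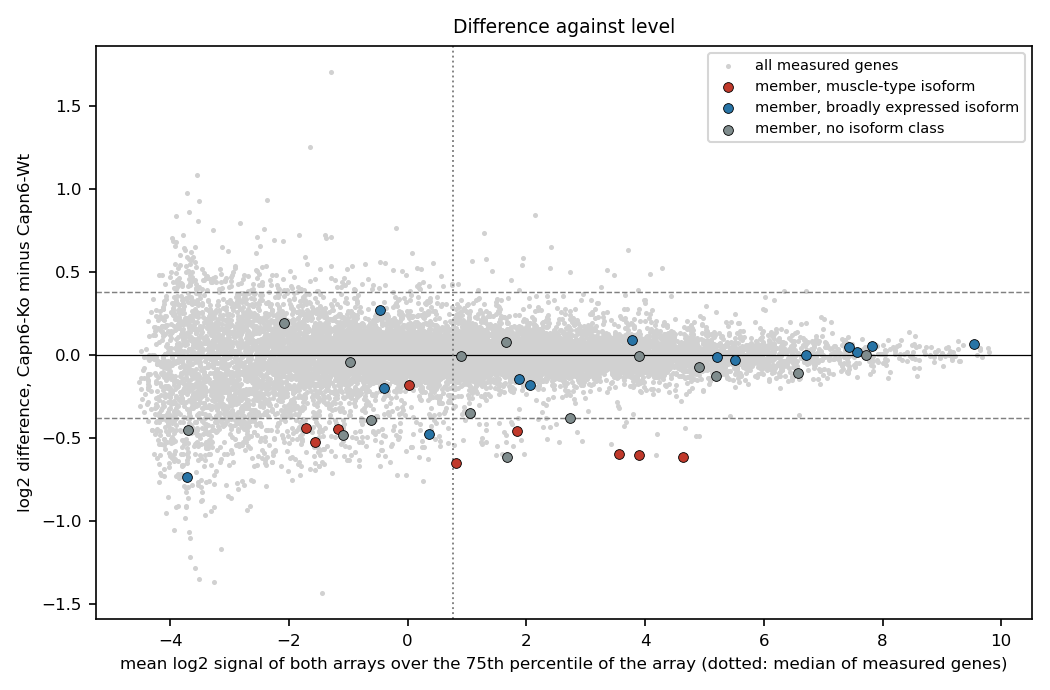
Log2 difference, Capn6-Ko minus Capn6-Wt (vertical axis), against mean log2 signal over the 75th percentile of each array (horizontal axis) for 12875 genes (light grey) with the members on top; the dotted line is the median level. Tagln, Acta2 and Myl9 lie near -0.60 where the grey cloud is narrow, and the broad isoforms at the right edge lie near 0.

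Genes around the members were read as well, none of them a member. Mrtfa and Mrtfb, the SRF coactivators, named here for their role, stood at -0.040 ± 0.058 and -0.10 ± 0.11. Of 33 genes of the leukocyte and podosome actin machinery, such as those of the Arp2/3 complex, 23 lay above 0 and the median was 0.036. At least 1.3-fold lower was 1 of the 33 (3.03%), near the 4.32% of all measured genes. It was the cortical actin-binding protein gene Cttn, cortactin, with 317 in Capn6-Wt and 241 in Capn6-Ko (-0.40 ± 0.13).

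Of 27 further smooth muscle genes 16 were measured, 12 lay below 0, and the median was -0.11. At least 1.3-fold lower were 4 of the 16 (25%), of which 3 are given here, beside 4.32% of all measured genes. Nexn, the actin-binding nexilin, read 90.1 in Capn6-Wt and 56.3 in Capn6-Ko (-0.66 ± 0.18), and Parva, α-parvin, which joins integrins to actin, read 159.9 and 113 (-0.51 ± 0.12). Hspb1, a small heat shock protein that acts on actin, read 3201 and 2293 (-0.46 ± 0.082). None of the 16 was at least 1.3-fold higher, where 1.74% of all measured genes were.

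Markers of stromal fibroblasts were lower in Capn6-Ko along with the muscle-type genes. Of 20 such markers 18 were measured and 16 lay below 0. At least 1.3-fold lower were 11 of the 18 (61.1%), beside 4.32% of all measured genes. The 18 markers had a median of -0.42. Their summed scaled signal was 110.0 in Capn6-Wt and 80.9 in Capn6-Ko, with Lum and Twist1 not measured. Sparc, a collagen-binding matrix protein, read 14311 and 9900.1 (-0.54 ± 0.062), Col1a2, a chain of type I collagen, 8413 and 5485 (-0.60 ± 0.078), and Col5a1, a chain of type V collagen, 481 and 323 (-0.56 ± 0.10). Fn1, fibronectin, which macrophages also make, read 5938 and 4593 (-0.35 ± 0.076), while Thy1 and Fap were above 0 by 0.17 ± 0.26 and 0.14 ± 0.17. The part of these cells in the muscle-type result was not tested. In bulk RNA of pooled cells, fewer cells of a type and less RNA per cell cannot be told apart.

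Most macrophage markers were higher in Capn6-Ko by a small amount. Of 16 such markers 14 were measured, with a median of 0.19. Above 0 lay 11 and below 0 lay 3, where 52.2% of all measured genes were below 0. At least 1.3-fold higher was 1, Cx3cr1, and 0 were lower, beside 1.74% and 4.32% of all measured genes. Their summed scaled signal was 781 in Capn6-Wt and 829 in Capn6-Ko. Cx3cr1, the fractalkine receptor, read 1989.97 and 3012 (0.59 ± 0.064), Cd14, the endotoxin co-receptor, 4187 and 5319.7 (0.36 ± 0.076), Csf1r was at 0.20 ± 0.046, Adgre1, a surface receptor of mature macrophages, at 0.19 ± 0.058 and Lyz2 at -0.0078 ± 0.083. Cd163 was at background, and Cd68 had no probe matched to it by RefSeq name. The lowest values were those of Mrc1 (-0.045 ± 0.076) and Mertk (-0.034 ± 0.081).

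Markers of other cells that express part of the list were sparse or differed little. Of 8 pericyte markers 3 were measured, and Rgs5, Notch3, Kcnj8, Abcc9 and Ndufa4l2 were not. Cspg4 stood at 0.37 ± 0.20, Higd1b at -0.067 ± 0.19 and Mcam at -0.020 ± 0.083, which is the median. Mcam was measured on 1 of its 2 probes. Of 19 skeletal and cardiac muscle markers 5 were measured, with a median of -0.21 and 0 past 1.3-fold. The 14 that were not measured included Myod1, Myog, Ckm and Ttn. Of the 5, the lowest values came from dim signals, Tnnc2 (31.6 in Capn6-Wt and 24.2 in Capn6-Ko, -0.37 ± 0.25) and Myh7 (18.9 and 15.9, -0.23 ± 0.26). Both lie within 2 SD of spot error. The brighter Tnni2 and Tnnt1 stood at -0.065 ± 0.082 and 0.15 ± 0.12. The 12 megakaryocyte and platelet markers, from cells rich in myosin IIA and tropomyosin, were all measured, with 10 above 0, a median of 0.13 and 1, Gp6, past 1.3-fold at 0.47 ± 0.16. Over all measured genes, 4.32% were lower and 1.74% higher by at least 1.3-fold. Endothelial markers had a median of -0.059 over 5 of 10 and osteoblast markers -0.12 over 4 of 8. The summed scaled signal in Capn6-Wt and Capn6-Ko was 108.0 and 106.5 for pericyte, 8.50 and 8.18 for striated muscle, 62.3 and 65.2 for platelet, 9.93 and 9.85 for endothelial and 59.5 and 71.8 for osteoblast markers. Single genes made up most of some sums in Capn6-Wt, with Mcam, an adhesion molecule, at 99.7% of the pericyte sum, the troponin gene Tnni2 at 91.5% of the striated muscle sum and Spp1, osteopontin, which macrophages also make, at 99.3% of the osteoblast sum. Spp1 stood at 0.27 ± 0.083 and Ibsp at 0.12 ± 0.26, while Alpl and Runx2 stood at -0.37 ± 0.16 and -0.36 ± 0.26. None of these 4 osteoblast markers passed 1.3-fold. Ibsp (20.7 in Capn6-Wt and 22.1 in Capn6-Ko) and Runx2 (26.0 and 20.0) were dim.

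**Figure D5:**
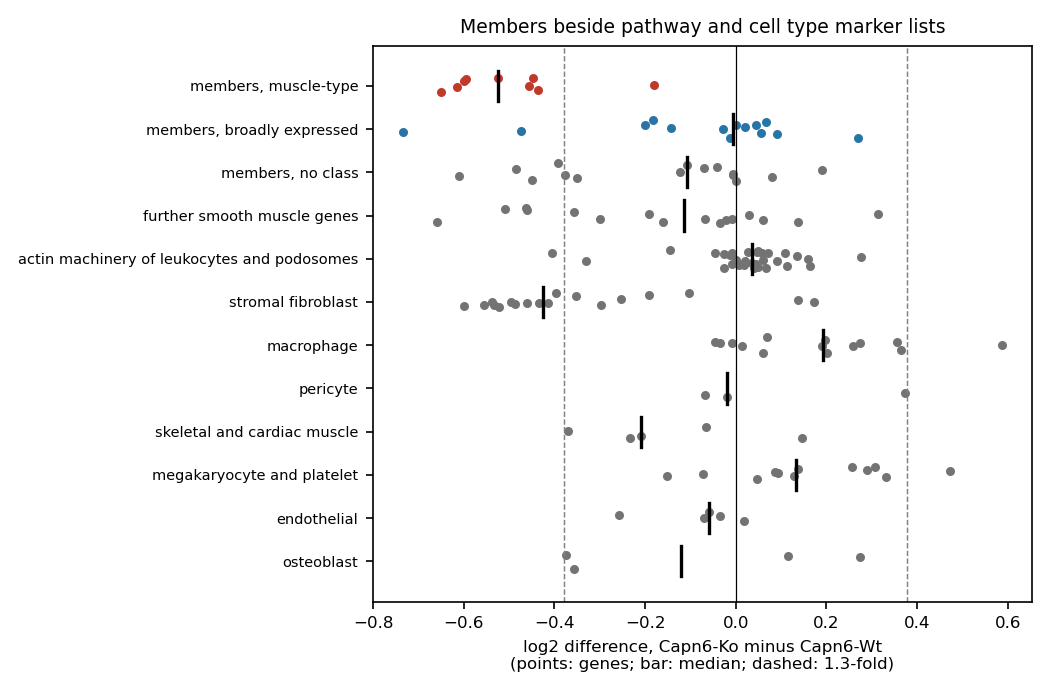
Log2 difference, Capn6-Ko minus Capn6-Wt (horizontal axis), of the measured genes (points) of each list, with black bars at the medians and dashed lines at 1.3-fold. The muscle-type members (median -0.53) and stromal fibroblast markers (-0.42) lie to the left, the broad members (-0.0054) at 0, and the macrophage markers (0.19) to the right.

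The smooth muscle name of the list fits these cultures in part. Present on both arrays were Acta2, Tagln, Myl9, Cnn1, Actg2, Cald1 and Smtn. Other members known from muscle, Myh11, Lmod1, Des, Synpo2 and Myocd, were not well above background on either array.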

How the data were processed

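Per the file headers, the deposited values are linear spot intensity from Agilent Feature Extraction 10.10.1.1, in 1 colour, on an array annotated on mm9. Background had been removed from the processed signal. Both arrays shared 1 slide and 1 scan, per the file headers. The authors' deposited value table, also intensity, was the processed signal times 2.39 for Capn6-Wt and 2.42 for Capn6-Ko.

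Control spots and spots flagged as outliers (161 and 136) were left out, and 0 spots were saturated. The log2 signal minus the 75th percentile of the array (377 and 372) was averaged over the spots of a probe and the measured probes of a gene. A probe counted as measured if the majority of its spots passed the scanner software's background test on each array. Accessions were matched to RefSeq symbols (GRCm38.p6) for 27232 of 55678 probes. The spot SD came from probes with at least 5 spots in 8 bins of level. A size of 1.3-fold stood in for a call, with 1.5-fold as a second size.

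The members, gene lists and sizes were chosen with earlier results of these data known. Named were all members, pathway genes past 1.3-fold (at most 4 per direction), and, of the marker lists, the 3 with the highest signal and up to 2 furthest per direction, given here for fibroblasts and macrophages and in part for the other lists. Genes named for being at background, and Mrtfa and Mrtfb, fall outside this rule. A pathway list and a gene that the rule covers are not reported here. The normexp alternative used the median spot signal, since the mean spot signal it was planned on was not used here. Planned protein sequences were not used here. The steps ran in Python 3.11.15 (numpy 2.4.6, pandas 2.3.3) and R 4.3.3 (limma 3.58.1) and were tested on simulated data.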

Additional observations from a re-analysis of the deposited data

How the results depend on the processing

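The counts past 1.3-fold, over members, both isoform classes and all genes, were recomputed under 8 alternatives. So were the medians of the members and of both isoform classes, and each member's difference. The family contrasts, 1.5-fold counts, pathway and marker lists and motif shares were not. No paired analysis was possible because each group is 1 array, and for the same reason no replicate could be left out. The 9 measured muscle-type isoforms (6 where probes were limited to those above the median level) stayed below 0 throughout, and 7 members, Acta2, Actg2, Tagln, Cnn3, Tpm2, Myl9 and Fhl2, were at least 1.3-fold lower in all 9 settings. After normexp correction of the median spot signal, whose added offset of 50 draws dim probes toward 0 by construction, 7 members were lower by 1.3-fold instead of 14, the muscle-type median was -0.40, and over all genes 125 were lower and 42 higher instead of 556 and 224. With probes above the median level alone, where fewer genes are measured, the counts were 7 members, 88 genes lower and 41 higher. With each array centred on its median, 367 genes were higher, 52.9% of the called genes were lower instead of 71.3%, and Flnc and Smtn left the called members. With probes well above background on at least 1 array, 468 genes were higher. The median of the broad isoforms was 0.059 with arrays centred on their median, on the other side of 0 from the -0.0054 reported. Of 297 values of single members over the alternatives 268 moved by less than their spot SD, 29 by more, and 0 called members changed sign. Depth here is signal over background, and it leaves 9 members without a value.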
